A study of Mus musculus with 4 samples.

Results

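Glycolysis splits glucose into pyruvate in the cytosol, and 10 genes that carry glucose into the cell and down to lactate were followed in total RNA of splenic T cells. They are the glucose transporters Slc2a1 and Slc2a3, the hexokinases Hk1 and Hk2, the phosphofructokinase Pfkl, the aldolase Aldoa, the dehydrogenase Gapdh, the kinase Pgk1, the pyruvate kinase gene Pkm and the lactate dehydrogenase Ldha. They were taken by symbol from the annotation in the transcript tables and are 10 of 55536 mouse genes. The choice was made with earlier results of these data known. The symbol Aldoa stands on a further gene identifier, ENSMUSG00000114515.2, which had 0 counts in every library and is left aside. The cells came from the spleen of virgin male B6CASTF1/J mice of 66 days, F1 hybrids whose dam was C57BL/6 and whose sire was CAST/EiJ, and the labels name CD3, the T cell receptor's signalling partner. A single group of 4 libraries came from 4 biosamples that share 1 donor identifier, with no treatment, no mutant allele and no second condition, so the questions are how the genes stand to one another and how far they differ between libraries 1 to 4. The labels number the libraries as biological replicates 1 to 4 but do not say that each biosample was a separate animal. SDs and p-values measure the spread between these samples, which may be technical.

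Glucose enters through facilitative transporters, is trapped by a hexokinase as glucose 6-phosphate, and is committed to glycolysis by phosphofructokinase. Aldolase splits the sugar, Gapdh and Pgk1 carry out the first steps that return reducing power and ATP, and pyruvate kinase makes pyruvate, which lactate dehydrogenase can turn into lactate. Resting T cells use little glucose and rely mainly on oxidation in mitochondria, and on activation they raise glucose uptake and lactate production.

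Each library held 14584388 to 17335895 estimated counts. Levels are given in TPM, a deposited unit that divides by length and so allows genes to be compared. The first of 2 deposited quantifications is used unless the second is named. The T cell label was checked with the markers Cd3d, Cd3e, Cd3g, Cd247, Cd2, Cd5, Lck and Trac: 8 of 8 were above 10 TPM in every library, and their sum was 1817 to 1899 TPM. Libraries 4 and 2 stood apart in markers of other cells. Library 4 had a summed level of 77.2 TPM for 7 B cell markers, against 8.42 to 12.0 TPM in the others, and 633 TPM for 7 erythroid markers, against 15.3 to 62.5 TPM. Library 2 had 34.9 TPM for 7 neutrophil markers, against 10.2 to 12.6 TPM. In bulk RNA, fewer cells of a type and less RNA per cell cannot be told apart.

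The 10 genes spanned more than 2 orders of magnitude in level. Gapdh stood highest, at 155.4 ± 11.7 TPM (SD, n = 4, as for all means below), and was followed by Pkm, Aldoa and Ldha, between 94.6 and 117 TPM. Pfkl, Pgk1 and Hk1 formed a middle group between 26.8 and 37.4 TPM, the transporters stood at 12.5 ± 1.47 (Slc2a3) and 13.01 ± 1.91 TPM (Slc2a1), and Hk2 was under 1 TPM. Of the 9 neighbouring pairs in this order, 6 did not overlap between their 4-library ranges. The pairs that did overlap were Aldoa with Ldha, Pfkl with Pgk1, and Slc2a1 with Slc2a3. Among 10162 protein-coding genes with a mean of at least 1 TPM, Gapdh fell in the top 2.66%, Pkm in the top 3.73%, Aldoa in the top 4.56% and Ldha in the top 4.93%. Pfkl fell in the top 17.8%, Pgk1 in the top 19.0% and Hk1 in the top 25.8%, while Slc2a1 at 49.7% and Slc2a3 at 51.1% lay at the middle of the ranking. Together the 10 genes took 0.168% ± 0.00648 of the TPM of protein-coding genes. The second quantification gave each gene a higher level, by 1.10 to 2.28 times, with Gapdh still first and Slc2a1, Slc2a3 and Hk2 still last. Its order placed Ldha above Pkm and Aldoa, 3 genes whose neighbouring ranges overlapped, and separated Pfkl from Pgk1.

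**Figure D1:**
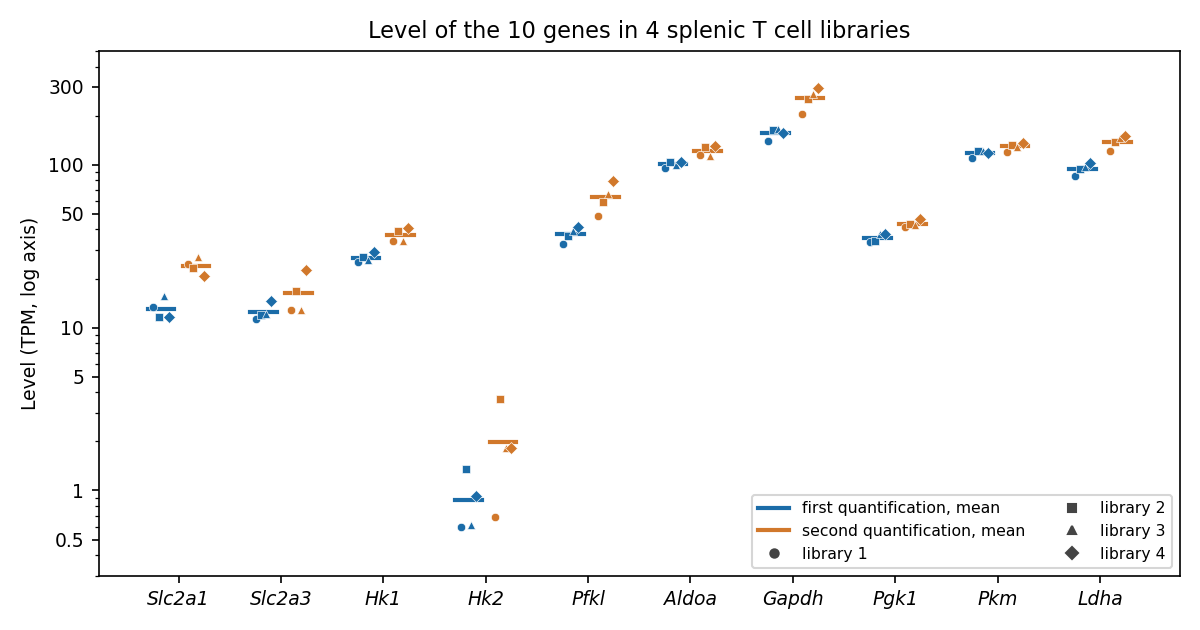
Level of each gene in TPM on a log axis, with 1 symbol per library and a line at the mean of 4 libraries, in the first (blue) and second (orange) deposited quantification. The 4 libraries lie close together for most genes, the means run from 0.875 TPM for Hk2 to 155.4 TPM for Gapdh in the first quantification, and the second lies above the first for all 10 genes.

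The RNA of both transporters stood at about the same level. Slc2a1, which encodes GLUT1, the carrier that T cells bring to their surface on activation, lies on chromosome 4 (mm10, 119108711 to 119137983, plus strand). It had 13.3, 11.6, 15.6 and 11.6 TPM in libraries 1 to 4, from 462 to 624 estimated counts. Library 3 was highest, and libraries 2 and 4 were almost equal. Slc2a3, which encodes GLUT3, a carrier of high glucose affinity best known from neurons, lies on chromosome 6 (122727809 to 122801640, minus strand). It had 11.2, 11.9, 12.2 and 14.6 TPM, and library 4 was highest. The ranges overlapped, and neither transporter was above the other in all libraries: the log2 ratio of Slc2a3 to Slc2a1 was -0.23, 0.03, -0.33 and 0.31, with a mean of -0.05 ± 0.29. In the second quantification the mean ratio was -0.57 ± 0.52, with 3 libraries below 0 and library 4 above.

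Of 11 other transporters of the glucose carrier families, 6 had 0 counts in all libraries, among them Slc2a2 and Slc2a4, the carriers of liver and of insulin-responsive muscle and fat. A count of 0 allows a level of up to 0.174 to 0.206 CPM (counts over the library's total, not divided by length) here, set as 3 counts of a library. Slc2a9, a urate carrier of the same family, had 8.13 ± 1.72 TPM, Slc2a8 had 2.37 ± 0.270 TPM and Slc2a6 had 0.280 ± 0.0804 TPM.

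The reads of both transporters fell on several transcripts. Slc2a1-201, the full coding transcript of 3260 bases, took 42.4%, 75.0%, 49.0% and 72.6% of the gene's TPM in libraries 1 to 4. Slc2a1-204, annotated as a target of nonsense-mediated decay, took 49.2%, 20.3%, 35.7% and 17.9%. The 2 transcripts together held most of the gene's TPM, so the share of 1 falls as that of the other rises. The share of Slc2a1-201 was higher in libraries 2 and 4 than in libraries 1 and 3. Every one of the 2241 bases of Slc2a1-204 also lies in Slc2a1-201, so its reads are told apart by splice junctions and ends only. In the second quantification the 4 libraries were close together for Slc2a1-204, at 23.5% to 27.7%. For Slc2a3, 66.0% ± 4.44 of the TPM lay on protein-coding transcripts and 29.9% ± 3.68 on transcripts with a retained intron.

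Hk1 was the hexokinase of these cells by RNA level. It encodes a form that binds mitochondria and is present in most tissues, and lies on chromosome 10 (62268855 to 62379908, minus strand). Its level was 25.2, 27.0, 25.9 and 29.3 TPM in libraries 1 to 4, which made up 92.9% ± 1.29 of the TPM of the 5 hexokinase genes. Hk2, on chromosome 6 (82725025 to 82774454, minus strand), encodes the inducible mitochondrial form of muscle, fat and many tumours. It had 53, 55, 55 and 57 estimated counts, nearly the same number in each library, yet 0.600, 1.36, 0.610 and 0.930 TPM. In library 2, 49.3% of the Hk2 TPM was placed on Hk2-202, a processed transcript of 594 bases that holds 10.6% of the gene's reads there, and in libraries 1 and 3 the coding transcript of 5513 bases had all of it. Hk1 was above Hk2 in all 4 libraries, by a log2 ratio of 3.91 ± 0.23. Hk3, a form of myeloid cells, averaged 1.16 TPM, with a range of libraries that overlapped that of Hk2. Hkdc1 had 0 counts.

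The Hk1 gene has several alternative first exons, and its transcripts differed between the quantifications. Hk1-202 took 60.0% ± 10.02 of the gene's TPM in the first, against 21.7% ± 5.68 in the second. Hk1-201, which starts 17820 bases upstream, took 23.4% ± 9.26 in the first and 38.6% ± 4.49 in the second, and Hk1-205 took 0.310% and 20.7%. The noncoding gene Hk1os overlaps Hk1 on the opposite strand and had 1.04 ± 0.352 TPM. The library kit marks strand, per the labels, while the strand setting of the authors' counting is not given in the sources used here.

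Phosphofructokinase RNA came from the liver-type and platelet-type genes together. Pfkl, on chromosome 10 (77986947 to 78010083, minus strand), had 32.5, 36.6, 39.2 and 41.3 TPM in libraries 1 to 4. Library 1 was lowest and library 4 highest. Pfkp had 51.4 ± 2.09 TPM and was above Pfkl in all 4 libraries, with a log2 ratio of Pfkl to Pfkp of -0.45 ± 0.12. In the second quantification this ratio was -0.21 ± 0.29 and was above 0 in library 4. Pfkm, the muscle-type gene, had 3.85 ± 1.09 TPM, and Pfkl exceeded it by a log2 ratio of 3.01 ± 0.41. The 3 genes held 40.3%, 55.5% and 4.19% of the step in the order Pfkl, Pfkp and Pfkm.

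By TPM, Pfkl had the largest share of the 10 genes on transcripts with a retained intron. Only 31.0% ± 4.48 of its TPM lay on protein-coding transcripts, while 45.2% ± 1.22 lay on transcripts with a retained intron. These shares were 31.2% ± 7.73 and 37.3% ± 2.50 in the second quantification. The unspliced Pfkl-208, a single exon of 2141 bases, took 24.6% ± 3.71 of the gene's reads. The full coding Pfkl-201 took 58.7% ± 4.29 of the reads and 27.5% ± 2.86 of the TPM. In reads, Pfkl did not stand apart, with 4.74% and 2.09% on its other retained-intron transcripts, Pfkl-204 and Pfkl-203. The retained-intron Slc2a3-204 took 31.4% ± 6.15 of the reads of Slc2a3, and the single-exon Gapdh-213 took 19.8% ± 4.87 of those of Gapdh. Pfkl was 1 of 2 genes, with Gapdh, in which protein-coding transcripts held less than 50% of TPM, and the only 1 of the 10 in the second quantification. The libraries were made from total RNA, in which unspliced RNA is also measured.

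**Figure D2:**
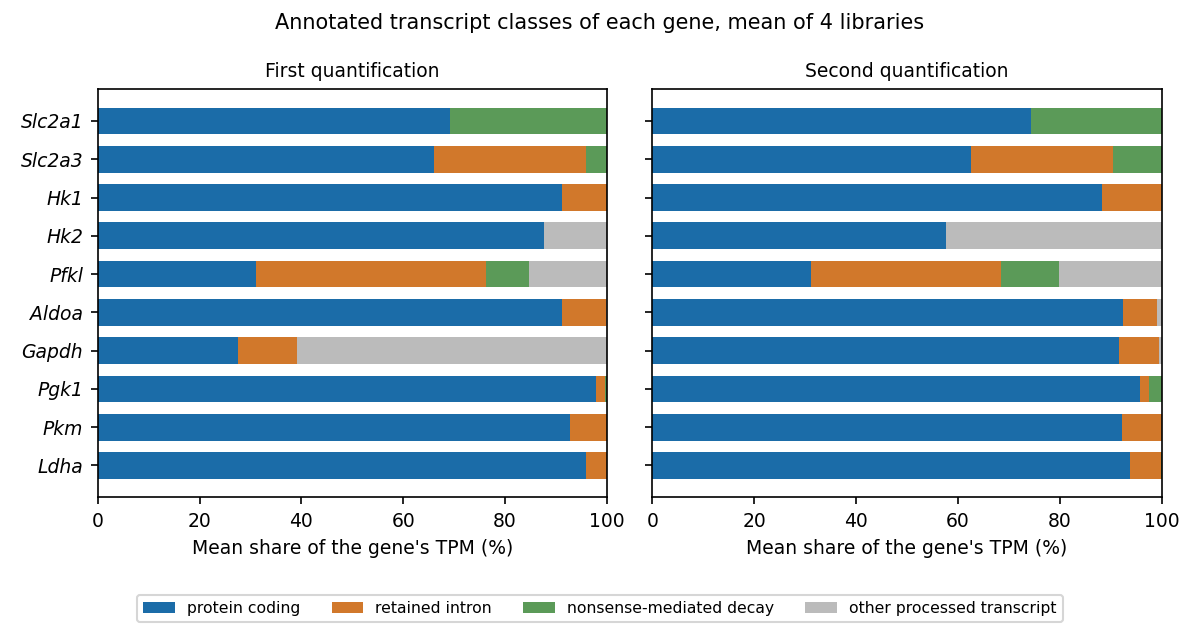
Mean share of each gene's TPM, in percent, by annotated class of transcript, in the first (left) and second (right) quantification. Protein-coding transcripts hold under 50% for Pfkl on both sides, at 31.0% and 31.2%, and for Gapdh only on the left, at 27.6% against 91.7%.

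Aldoa, the aldolase of muscle and most other tissues, lies on chromosome 7 (126795234 to 126800751, minus strand). It had 94.8, 103, 99.6 and 103 TPM in libraries 1 to 4, with a coefficient of variation of 3.97%, the smallest of the 10 genes on this scale. Aldoc, the brain-type gene, had 8.03 ± 1.08 TPM, and the log2 ratio of Aldoa to Aldoc was 3.49 ± 0.12. The retrogenes Aldoart1 and Aldoart2 had 0 counts. The gene's level was 100.2 ± 3.98 TPM in the first and 121 ± 8.31 TPM in the second quantification, with ranges that did not overlap, and the first exon that received the reads also differed. Aldoa-201, which starts at position 126799254, took 85.0% ± 1.22 in the first quantification and 40.5% ± 5.96 in the second. Aldoa-203, which starts 1193 bases further upstream, had no share in the first and 45.4% to 55.0% in the second. Both transcripts have 9 exons, and 89.0% of the bases of Aldoa-203 are in Aldoa-201.

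Gapdh oxidises glyceraldehyde 3-phosphate and is widely used as a reference gene. It lies on chromosome 6 (125161715 to 125166467, minus strand) and had 139, 162, 165 and 155.4 TPM in libraries 1 to 4. Library 1 was lowest, and the other 3 were within 10 TPM of each other. Much of that level was placed on a short transcript. Gapdh-208, a processed transcript of 483 bases, held 60.7% ± 3.13 of the gene's TPM and 31.8% ± 3.43 of its reads, and TPM divides by length. All of its bases also lie in the coding Gapdh-203. The second quantification gave Gapdh-208 just 0.490% ± 0.160 and placed the gene on Gapdh-203, with 46.7% ± 7.97, and Gapdh-207, with 39.9% ± 3.89. The coding Gapdh-201 had 25.7% ± 3.62 of TPM and 41.0% ± 5.40 of reads in the first quantification and 0 TPM in the second.

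Gapdh also has by far the most near copies among these genes. Of its transcript, 76 other genes held a stretch of at least 300 bases at 95% identity or more, of which 74 are annotated as pseudogenes. Their summed level was 7.95, 19.2, 16.4 and 21.6 TPM in libraries 1 to 4 of the first quantification, and 77.0 ± 10.1 TPM in the second. Which copy received the reads differed. Gm14760 had 6.67, 16.4, 0.0200 and 17.7 TPM in the first and 0 TPM in the second, and Gm7336 had 0.505 ± 0.403 TPM in the first and 70.6 TPM in the second. The level of Gapdh is therefore uncertain by the reads that such copies can take or give. With the copies added it was 172 ± 16.7 TPM in the first quantification and 333 ± 39.8 TPM in the second.

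Pgk1, which makes the first ATP of the pathway, is X-linked (X chromosome, 106187100 to 106203699, plus strand), so these male cells hold the maternal C57BL/6 copy alone. It had 33.5, 34.2, 37.4 and 37.6 TPM, in 2 close pairs of libraries. Nearly all of it was 1 transcript, Pgk1-201, with 97.8% ± 2.45 in the first and 95.7% ± 2.67 in the second quantification. The testis gene Pgk2 had 0 counts. Gapdh stood above Pgk1 by a log2 ratio of 2.09 ± 0.09, which was 2.52 ± 0.17 in the second quantification. Of 4 pseudogenes like Pgk1, Gm5537 had 1.68 ± 1.12 TPM in the first quantification and the others little or none.

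Pkm encodes both pyruvate kinases M1 and M2 by a choice between 2 neighbouring exons of equal length. M1 is the form of adult muscle and brain, and M2, whose activity is tuned by fructose 1,6-bisphosphate, is the form of proliferating and many other cells. The exons are shown because the choice between them sets the form. They lie on chromosome 9 of mm10, plus strand, at chr9:59675029-59675195 for exon 9 (M1) and chr9:59675568-59675734 for exon 10 (M2), and are read 5′ to 3′. Capitals mark the positions at which the exons differ.
Pkm exon 9 (M1): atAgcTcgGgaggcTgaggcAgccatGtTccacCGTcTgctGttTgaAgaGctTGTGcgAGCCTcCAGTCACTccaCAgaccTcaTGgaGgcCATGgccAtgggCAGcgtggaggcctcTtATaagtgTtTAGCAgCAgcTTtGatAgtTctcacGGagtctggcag
Pkm exon 10 (M2): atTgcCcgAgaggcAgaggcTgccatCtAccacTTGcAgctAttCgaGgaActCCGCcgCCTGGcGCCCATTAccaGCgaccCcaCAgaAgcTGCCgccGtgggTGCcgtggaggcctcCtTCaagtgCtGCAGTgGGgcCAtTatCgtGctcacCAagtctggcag
Over 167 aligned positions without gaps, 64 differed and 61.7% were identical.

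Pkm had 109, 121, 120 and 118 TPM in libraries 1 to 4 (chromosome 9, 59656368 to 59679375, plus strand), and library 1 was lowest. The M2 form was by far the more abundant. Pkm-201, the full transcript with exon 10, had 88.0 ± 2.74 TPM, against 2.46 ± 1.15 TPM for Pkm-202, the full transcript with exon 9. Of these 2, the M2 form made up 99.1%, 96.7%, 97.2% and 96.3% in libraries 1 to 4. The second quantification gave 97.7% ± 1.25. Pkm-201 and Pkm-202 also differ in start site and in length, at 2432 and 2041 bases, so their levels do not rest on the 2 exons alone. Pkm-203, a transcript with a retained intron that also holds exon 9, had reads in library 1 alone in the first quantification, and with it counted there the M2 form made up 97.6%, 96.7%, 97.2% and 96.3%, so that library 1 no longer stood apart. The log2 ratio of M2 to M1 was 4.76 ± 0.57, and the reads of Pkm-202 were 25.4, 102, 86.7 and 96.7 estimated counts, lowest in library 1. Transcripts that hold neither exon took 22.4% ± 2.55 of the gene's TPM, so these reads say nothing about the choice. Gm49759, a locus that the annotation lists as still to be tested by experiment, overlaps both exons on the same strand and had 8.15 ± 0.874 TPM. The liver and red cell gene Pklr had 0.273 ± 0.276 TPM, and Pkm held 99.8% ± 0.232 of the step.

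Ldha, the lactate dehydrogenase subunit that favours lactate production, lies on chromosome 7 (46841475 to 46855627, plus strand). It had 85.6, 94.4, 96.7 and 102 TPM in libraries 1 to 4. Ldhb, the subunit of heart that favours pyruvate, had 13.1, 10.1, 8.41 and 9.97 TPM, so library 1 was lowest for Ldha and highest for Ldhb. Ldha exceeded Ldhb in all 4 libraries by a log2 ratio of 3.08 ± 0.33, and held 90.0% ± 2.32 of the step. The testis gene Ldhc had 0 counts. Ldha-202 was the leading transcript, with 84.5% ± 4.28 in the first and 61.3% ± 4.62 in the second quantification, and Ldha-201, from a start further downstream, was at 0% and 5.86%.

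**Figure D3:**
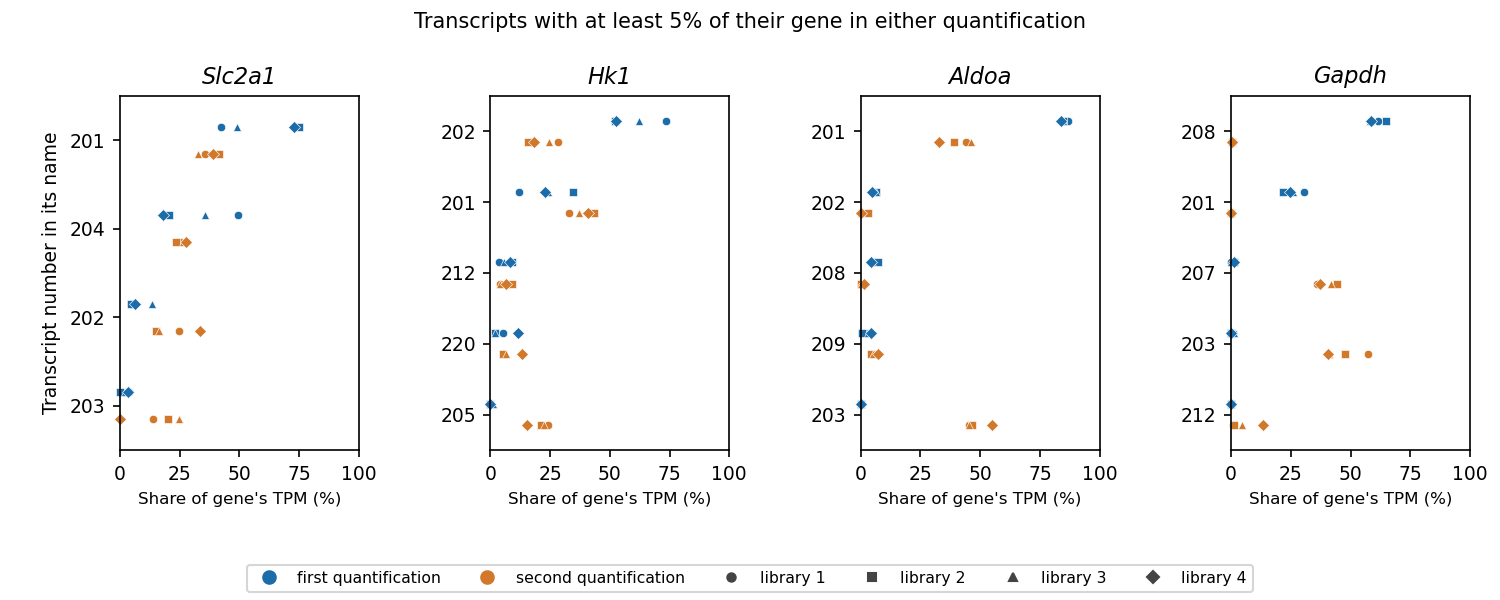
Share of the gene's TPM, in percent, of each transcript that held at least 5% in either quantification, for 4 of the genes, with 1 symbol per library in the first (blue) and second (orange) quantification. Gapdh-208 is near 60% in the first and below 1% in the second, Aldoa-203 is at 0% in the first and near 48% in the second, and the libraries spread most for Slc2a1-201 and Slc2a1-204 in the first.

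For 10 such ratios of 2 genes or transcripts within a library, 9 had the same direction in all 4 libraries, and the ratio of Slc2a3 to Slc2a1 did not. An exact sign-flip permutation test, two-sided and over 4 libraries, cannot give a p below 0.125, so none of them could pass 0.05. Those 9 had that smallest p, or 0.139 after Benjamini-Hochberg adjustment over the 10 ratios, and the ratio of Slc2a3 to Slc2a1 had an exact p of 0.875.

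Seen by step, the enzymes that are not among the 10 genes filled the pathway. Gpi1, glucose-6-phosphate isomerase, had 87.6 ± 1.70 TPM. Triosephosphate isomerase (Tpi1) was the lowest single-gene step, at 12.3 ± 0.561 TPM, and Pgam1, phosphoglycerate mutase, followed at 19.2 ± 1.90 TPM. The enolase step had Eno1 at 62.3 ± 4.08 TPM and Eno3 at 9.82 ± 1.71 TPM. The level of Eno1 is uncertain, since Eno1b, a nearly identical copy on chromosome 18, had 76.8 ± 2.90 TPM and the pseudogene Gm4735 had 38.5 ± 1.73 TPM, with Eno1b above Eno1 in all 4 libraries. The second quantification had Eno1 at 143 ± 17.7 TPM, Eno1b at 68.5 ± 3.91 TPM and Gm4735 at 40.4 ± 2.96 TPM, and the log2 ratio of Eno1 to Eno3 was 2.56 ± 0.19 in the first and 3.28 ± 0.21 in the second. With the copies added to Eno1 the ratio was 4.06 in the first. With Eno1b counted, the enolase step had 150.1 ± 5.52 TPM in the first quantification, of which Eno1b held 51.2% ± 2.22. In the second it had 227.4 ± 17.2 TPM, of which Eno1b held 30.3% ± 3.19. Per step, glucose uptake was taken as Slc2a1, Slc2a2, Slc2a3 and Slc2a4 alone. From the lowest, the sums were 12.3 TPM for Tpi1, 19.2 TPM for Pgam1 and 25.5 ± 1.88 TPM for glucose uptake. The highest was 155.4 TPM for Gapdh, with near copies left out. With the copies added, Eno1 had 178 ± 6.31 TPM and Gapdh 172 ± 16.7 TPM, so that order turns on the copies in the first quantification. In the second, with the copies added, Gapdh stayed above Eno1, at 333 ± 39.8 against 252.5 ± 17.0 TPM.

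**Figure D4:**
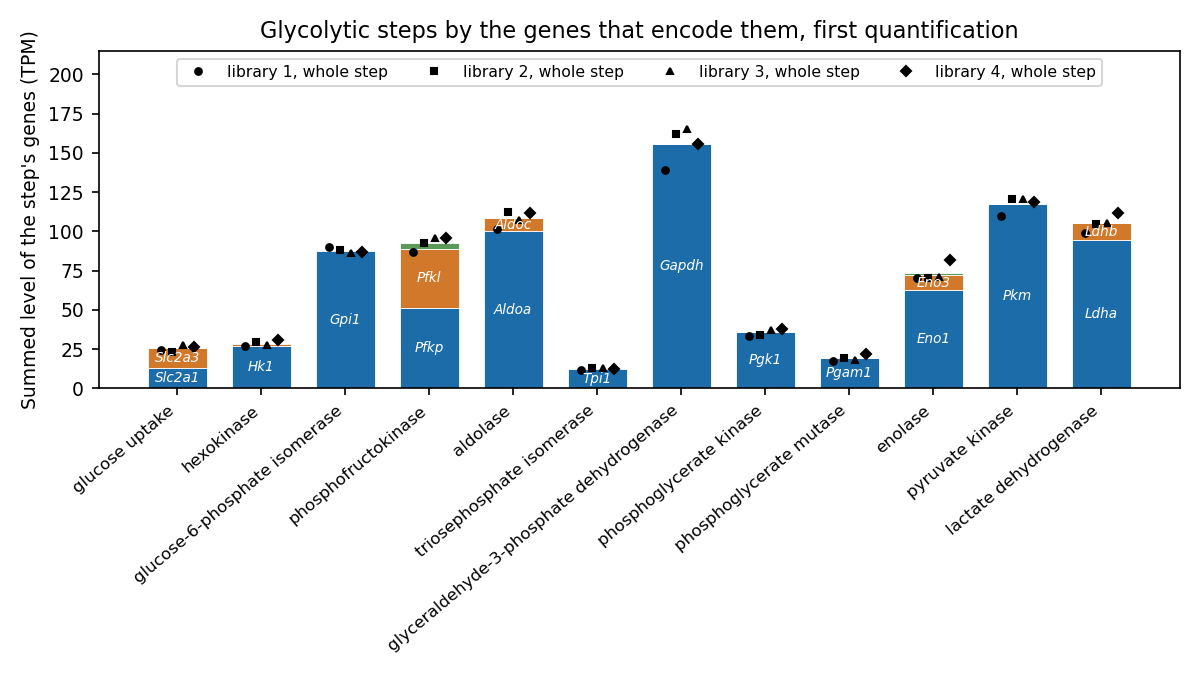
Summed TPM of the genes that encode each step, from uptake (left) to lactate dehydrogenase (right), in the first quantification. Bars are stacked by gene at the mean of 4 libraries and symbols give each library's sum, with 1 gene holding over 85% of each mean except at glucose uptake and phosphofructokinase. The enolase bar leaves out Eno1b, and with it Eno1 holds 41.5% of that step. Glucose uptake is the sum of Slc2a1, Slc2a2, Slc2a3 and Slc2a4.

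The 10 genes differed little between libraries. On log2 CPM after scaling by edgeR's TMM method, all but 8 of 40 gene and library values were within 0.1 of the gene's mean, and the largest departure was -0.18 for Pfkl in library 1. Slc2a1 was 0.15 above its mean in library 3 and 0.14 below it in library 4. Gapdh was 0.11 below in library 1 and 0.12 above in library 3. The median SD of log2 CPM was 0.0597 over the 10 genes, against 0.0794 over 55 tested genes of the surrounding pathways and 0.121 over all 13118 tested genes. The sets were not matched for count, on which this SD depends, so the medians do not set the 10 genes apart. In edgeR's goodness-of-fit test of variation between libraries, with Benjamini-Hochberg adjustment over all tested genes, 0 of the 10 were called, against 183 of 13118 genes, or 1.40%. At an unadjusted p below 0.05 the counts were 0 of 10 and 642 of 13118, and the smallest unadjusted p among the 10 was 0.280, for Pfkl. A count of 0 among 10 does not set these genes apart from a background of 1.40%. The test recovered 68.7% of genes changed 2-fold in 1 library of simulated counts for 12937 genes and 98% of those changed 4-fold, so smaller differences could be missed.

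**Figure D5:**
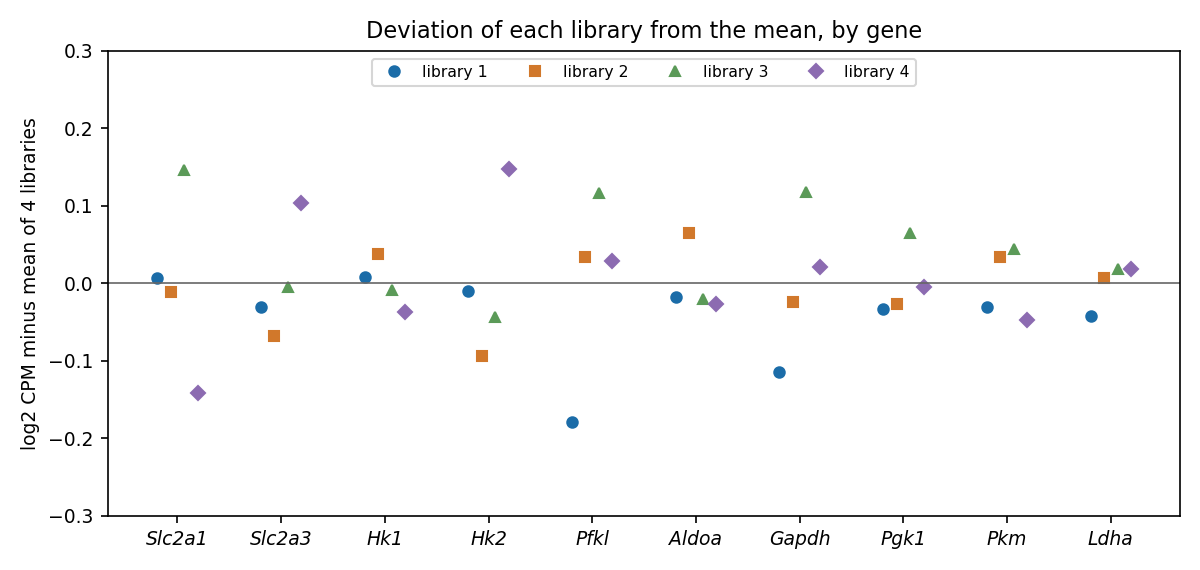
Log2 CPM of each gene in each library minus the gene's mean over the 4 libraries, with 1 symbol per library. All values lie between -0.179 and 0.147, with Pfkl in library 1 the farthest below 0 and Hk2 in library 4 and Slc2a1 in library 3 the farthest above.

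Library 1 had the lowest TPM for 9 of the 10 genes, all but Slc2a1, and library 4 the highest for 6. On CPM, library 1 was lowest for 7 and library 3 highest for 5, against 3 for library 4, and in TPM of the second quantification library 1 was lowest for 7 and library 4 highest for 8. The summed TPM of the 10 genes was 545 in library 1, against 603, 613 and 614 in libraries 2 to 4. On the scale of the share of protein-coding TPM the same libraries had 0.158%, 0.169%, 0.173% and 0.171%. Library 4, which stood apart in B cell and erythroid markers, had log2 CPM departures of -0.14 to 0.15 for the 10 genes. Library 2, which stood apart in neutrophil markers, had -0.09 to 0.06. Of the 6 B cell markers tested, 6 were called as variable, as were 3 of 3 erythroid and 3 of 4 neutrophil markers, with Cd79a at 12.6 TPM in library 4 against 1.19 TPM in library 3, the lowest. Without library 4, 0 of the 10 genes were called and the smallest unadjusted p was 0.0688, for Pfkl. The part of these other cells in the levels of single genes was not tested.

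Most promoters of these genes held the same short word. The core of the hypoxia response element, which HIF-1 binds, is ACGTG, and both it and the variant GCGTG were sought on both strands in windows from 250 bases before to 50 after each gene's start, from RefSeq on GRCm38.p6, together with CACGTG, the E-box, which contains ACGTG on both strands. Of the 10 genes, 9 had a window, and Slc2a3 is named only. ACGTG was present in a window of 8 of 9, against 21.8% of 27025 genes with a window and 4 of 17 other glycolytic genes. Pfkl was the gene without it. GCGTG was present in 5 of 9, against 35.2% of all genes and 8 of 17 other glycolytic genes. CACGTG was present in 1 of 9, against 8.09% of all genes. A gene counted when any of its windows held the word, and some of the 9 had more than 1 window. Taken by window, ACGTG was in 19.6% of all 32851 windows. That share is not to be set beside the 8 of 9 genes, since a window of each of Aldoa, Hk1, Ldha and Pkm lacked the word. The sets were not matched for number of windows or base content. The 10 genes were chosen for their role in a pathway, and a match is a description of letters, not a site of binding. The windows with the most matches, 7 for Ldha and 5 for Hk1, are shown to let the spacing of the words be seen. They lie at chr7:46845554-46845853 on the plus strand and chr10:62340372-62340671 on the minus strand, are written 5′ to 3′, and have every ACGTG and GCGTG of either strand in capitals.
Ldha promoter window: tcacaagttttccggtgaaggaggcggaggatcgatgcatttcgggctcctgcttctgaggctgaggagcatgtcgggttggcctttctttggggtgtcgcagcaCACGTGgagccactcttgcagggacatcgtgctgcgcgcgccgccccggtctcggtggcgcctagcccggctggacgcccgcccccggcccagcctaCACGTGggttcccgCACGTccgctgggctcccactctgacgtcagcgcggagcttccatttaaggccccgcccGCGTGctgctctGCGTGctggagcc
Hk1 promoter window: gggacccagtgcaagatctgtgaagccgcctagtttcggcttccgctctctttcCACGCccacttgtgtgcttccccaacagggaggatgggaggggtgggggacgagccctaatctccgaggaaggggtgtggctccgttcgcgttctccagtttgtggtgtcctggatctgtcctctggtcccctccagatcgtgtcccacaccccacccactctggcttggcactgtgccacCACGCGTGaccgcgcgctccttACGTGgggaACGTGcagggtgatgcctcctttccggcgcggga
The Hk1 window belongs to the start site near that of Hk1-202, the leading Hk1 transcript of the first quantification, and the gene's other RefSeq window held no match. Of the 3 Aldoa windows, 2 held ACGTG, among them the window at the start of Aldoa-201, and the window at the start of Aldoa-203 held no match. Of the 2 Pkm windows, the one that covers the start of Pkm-201, the leading Pkm transcript, held no match, and Pkm counts among the 8 through the other.

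Among genes that feed or drain the pathway, 0 of 55 tested of 82 listed genes were called as variable between libraries by edgeR's goodness-of-fit test, against 1.40% of all tested genes, and 1 of 55 had an unadjusted p below 0.05, against 4.89% of all tested genes. These counts do not set the lists apart from the background. That gene was Slc16a1, which encodes the lactate carrier MCT1, with an unadjusted p of 0.0407 and an adjusted p of 0.923 in edgeR's goodness-of-fit test. Slc16a1 had 6.14, 6.79, 8.99 and 8.23 TPM in libraries 1 to 4. Slc16a3, which encodes MCT4, the carrier of strongly glycolytic cells, had 0.870, 2.66, 0.640 and 1.5 TPM, and the log2 ratio of Slc16a1 to Slc16a3 was 1.88 ± 0.62. The partner proteins that bring these carriers to the membrane stood higher, with Emb at 106 ± 7.31 TPM and Bsg at 36.3 ± 1.57 TPM.

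Of 13 regulators of glucose uptake and glycolysis, Txnip was the highest. It encodes a protein that promotes the removal of GLUT1 from the surface, and its 188 ± 17.0 TPM stood above Gapdh in all 4 libraries of the first quantification and, at 198 ± 20.0 TPM, below the mean of Gapdh in the second. Hif1a, the oxygen-regulated subunit of HIF-1, had 37.6 ± 3.45 TPM, and Mlxip, a glucose-sensing transcription factor, had 26.6 ± 2.84 TPM. Egln3, a hydroxylase that HIF induces, had 0.590 ± 0.144 TPM, and Arrdc4, a relative of Txnip, had 0.647 ± 0.230 TPM. For fructose 2,6-bisphosphate, the activator of phosphofructokinase, Pfkfb3 had 13.5 ± 1.34 TPM, Pfkfb2 6.37 ± 0.912 TPM and Pfkfb4 5.15 ± 0.677 TPM. The gluconeogenic genes Fbp1 and Fbp2 had 0 counts.

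Pyruvate entry to mitochondria was covered by 13 listed genes, 12 of which had at least 1 TPM in every library. Pdhb and Pdha1, subunits of pyruvate dehydrogenase, had 48.3 ± 2.05 and 45.4 ± 2.60 TPM, and Pdk1, a kinase that inactivates that enzyme, had 33.1 ± 3.73 TPM, while Pdk4 had 0 counts. All 7 genes of the pentose phosphate pathway were above 1 TPM in every library, with Tkt at 47.8 to 50.8 TPM, Taldo1 at 34.1 ± 1.89 TPM and Pgd at 19.2 ± 0.842 TPM.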

How the data were processed

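Total RNA of splenic T cells was read in 4 libraries of 1 group, made with a directional kit from 300 ng of RNA plus spike-ins, per the labels. The text deposited beside each library names mm10 and GENCODE M21. Which aligner was used is not given in the sources used here, nor which quantifiers. The authors' expected counts, deposited for genes and transcripts, are unscaled estimates. The deposited TPM values are scaled by effective length to a fixed sum over all targets. In the deposited percent column, each transcript has its part of the gene's TPM. The second quantification was deposited as estimated counts and TPM per transcript, and was summed per gene here. Since the reference is C57BL/6, reads of the CAST/EiJ alleles could be missed or placed on near copies.

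The 97 spike-ins, 0.299% to 0.347% of counts, and 26248 numeric identifiers, at most 8.75e-05% of counts, name no gene and stayed out of library sizes and tests. Intervals and floors of 3 counts cover counting error only, since the labels name no molecular identifiers and PCR copies may be counted more than once. The test of variation used edgeR 4.0.16 (R 4.3.3), with the expected counts first rounded to integers (intercept only, trended dispersion, TMM, filterByExpr, goodness of fit, Benjamini-Hochberg at 0.05), which was tested on simulated data. DESeq2 1.42.0 gave alternative size factors. Log2 ratios are differences of log2(TPM + 1) within a library. Log2 CPM had a prior count of 2. Genes like a given gene were found with blastn 2.17.0 on the sense strand of M21 transcripts, and this comparison, the transcript read shares and the search for overlapping genes were added after seeing the data. Python 3.11.15, pandas 2.3.3 and scipy 1.17.1 were used.

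The 10 genes and the lists were chosen with earlier results of these data known. All 10 are named, with the top 3 of each list by mean TPM, the genes of the ratios and listed genes at 0. A few listed genes that this rule covers are not reported here. The other single genes of the steps are named too. Egln3, Arrdc4, Gm49759, Hk1os and the pseudogenes named were picked after their values were seen. Alternatives were DESeq2 size factors, no filter on low counts, a pseudocount of 0.1, the second quantification, transcripts under 1 TPM left out, other denominators, and each library left out in turn, and, chosen after seeing the data, near copies added to a gene, Eno1b added to the enolase step and every Pkm transcript with either exon counted.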

Additional observations from a re-analysis of the deposited data

Results flagged for a closer look

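Of 47 values checked for a library far from the other 3, among them the level of each of the 10 genes, 3 had such a library. Chance gives about 1 in 20, but the 47 values come from the same 4 libraries. The count of 3 therefore does not judge any single value. All 3 were sums of markers of other cells, and none was one of the 10 genes. In edgeR's goodness-of-fit test, 6 of 6 tested B cell, 3 of 3 erythroid and 3 of 4 neutrophil markers were called, against 1.40% of all tested genes. The summed TPM of B cell markers was 77.2 in library 4, against 8.42 to 12.0 in the other libraries. The summed TPM of erythroid markers was 633.5 in library 4, against 15.3 to 62.5. The summed TPM of neutrophil markers was 34.9 in library 2, against 10.2 to 12.6. T cell markers summed to 1817 to 1899 TPM in the same libraries. Slc4a1, a red cell membrane gene, was at 0 to 0.0900 TPM, while Hba-a1 reached 246 TPM in library 4. The part of these markers in the levels of the 10 genes was not tested.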

How the results depend on the processing

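The share of the 10 genes in TPM depended on what it was taken of: it was 0.0594% of the TPM of all targets, 0.168% of protein-coding TPM, 0.0937% of expected counts and 0.0831% in the second quantification. The number of genes that varied between libraries was 183, and 275 of 23727 with no filter on low counts, where more genes were tested. Leaving out 1 library gave 116 to 149 such genes, with the 116 found without replicate 4, while DESeq2 size factors gave 183. The count among the 10 genes was 0 in all of these settings. The log2 ratio of Slc2a3 to Slc2a1, at -0.05, ranged from -0.176 to 0.0386 when 1 library was left out, and changed sign without replicate 1 (0.00393) and without replicate 3 (0.0386), and the cause was not tested. The means of the other 9 ratios kept their sign under every alternative run, though that of Pfkl to Pfkp in the second quantification was above 0 in library 4, with an exact p of 0.375 in place of 0.125. With near copies added, the log2 ratio of Eno1 to Eno3 was 4.06 in place of 2.56, and that of Gapdh to Pgk1 was 2.23 in place of 2.09. The mean level of each of the 10 genes moved by more than 1 SD in the second quantification, and that of Hk2 was 0 when transcripts under 1 TPM were left out. No paired analysis was possible because there is 1 group. Hk2, with 53 to 57 counts, is the gene whose transcripts depth limits most.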
